A study of Mus musculus with 48 samples.

Results

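The Toll-like receptors Tlr1, Tlr2, Tlr3, Tlr4, Tlr6, Tlr7 and Tlr9, the accessory proteins Tril and Cd14 and the signaling adaptor Myd88 were examined in dentate gyrus RNA during the first weeks after intrahippocampal kainate. These 10 genes were selected by name from the 55357 genes of the count table, and all 10 had enough reads to be tested. Each wild-type C57BL/6J mouse had received a single injection of kainate, a glutamate receptor agonist that induces status epilepticus (SE), or of saline into 1 hippocampus. The dorsal dentate gyrus of the injected side (epileptogenic zone, EZ) and that of the other side (peri-ictal zone, PIZ) were collected separately from the same mouse at day 3, 7 or 14. Region, injection and day gave 12 groups of 4 mice, in all 48 libraries from 24 mice, and no tissue was pooled. The deposited records describe 2 male and 2 female mice per group, aged 6 to 8 weeks, whereas the methods of the study give a somewhat older range. All saline mice underwent the same surgery, so that the saline EZ is an injected side as well, and kainate mice were included on a behavioral seizure score without electrographic recording. The cells of the dissected tissue were not separated, and in such bulk RNA fewer cells of a type and less RNA per cell cannot be told apart.

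Toll-like receptors are membrane proteins of innate immunity that recognize microbial molecules and products of damaged cells. Tlr2, which pairs with Tlr1 or Tlr6, and Tlr4 act at the cell surface, where Cd14 hands lipopolysaccharide and lipopeptides on to them. Tlr3, Tlr7 and Tlr9 sit in endosomes and recognize double-stranded RNA, single-stranded RNA and unmethylated CpG DNA, respectively. Myd88 is the adaptor of all of these receptors except Tlr3, which signals through Ticam1, and the pathway ends in NF-kB and interferon regulatory factors. In the brain, microglia carry most of these receptors, and Tril, a leucine-rich repeat protein that works with Tlr4 and Tlr3, is known from astrocytes and neurons.

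The promoters of 4 members are shown because they represent the different responses described below: Tlr2 had the largest increase, Tlr3 the smallest in the EZ at day 3, Tlr9 stands for the endosomal receptors, and Tril had the highest level in saline tissue. Each sequence is the 250 bases directly before the start of the canonical transcript in GRCm39, written 5′ to 3′ on the strand of the gene. Capitals mark matches, on either strand, to a kappa-B motif (GGANTTTCC) or an AP-1 motif (TGANTCA). Motifs for PU.1 (GAGGAAGT) and an interferon-stimulated response element (GAAANNGAA) were also searched. The Tlr2 sequence lies at chr3:83749075-83749324 on the minus strand, that of Tlr3 at chr8:45863425-45863674 on the minus strand, that of Tlr9 at chr9:106099547-106099796 on the plus strand and that of Tril at chr6:53797816-53798065 on the minus strand.
Tlr2: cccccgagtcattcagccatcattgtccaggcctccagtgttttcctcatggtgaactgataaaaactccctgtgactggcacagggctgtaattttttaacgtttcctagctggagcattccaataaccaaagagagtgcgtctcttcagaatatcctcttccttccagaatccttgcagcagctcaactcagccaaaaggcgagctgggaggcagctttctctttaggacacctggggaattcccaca
Tlr3: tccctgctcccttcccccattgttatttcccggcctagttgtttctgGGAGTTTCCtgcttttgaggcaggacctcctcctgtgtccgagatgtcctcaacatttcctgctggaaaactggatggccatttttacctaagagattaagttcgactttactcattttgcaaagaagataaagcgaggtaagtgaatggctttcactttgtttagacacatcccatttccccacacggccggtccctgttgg
Tlr9: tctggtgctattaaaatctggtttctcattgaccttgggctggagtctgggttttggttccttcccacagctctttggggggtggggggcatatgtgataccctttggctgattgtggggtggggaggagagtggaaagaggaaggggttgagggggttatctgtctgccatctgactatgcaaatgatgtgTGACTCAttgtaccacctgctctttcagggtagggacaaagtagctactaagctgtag
Tril: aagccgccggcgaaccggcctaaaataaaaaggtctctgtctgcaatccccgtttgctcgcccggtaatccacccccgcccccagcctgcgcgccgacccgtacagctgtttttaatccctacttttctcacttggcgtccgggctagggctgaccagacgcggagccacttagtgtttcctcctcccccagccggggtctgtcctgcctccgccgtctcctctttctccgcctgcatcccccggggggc

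Of the 10 members, Tlr3 held a kappa-B match, 203 to 195 bases before the start, and the share of all 21262 promoters with such a match was 1.12%. An AP-1 match was found in Tlr9, 58 to 52 bases before the start, and in Cd14, against 5.3% of all promoters. No member held the PU.1 or the interferon-stimulated letters, which occurred in 2.11% and 7.58% of promoters, so that apart from the AP-1 letters of Tlr9 and Cd14 no searched motif was found in more than 1 member. The GC content of the promoters lay between 40% in Tlr1 and 70.4% in Myd88, and Tril at 63.6% was also above the upper quartile of all promoters (61.6%), whereas the 7 receptors lay at or below 50.4%. In the Gencode M39 annotation of GRCm39 all 10 are protein-coding genes. Tlr1 (chr5:65082022-65090941) and Tlr6 (chr5:65108704-65203497) are neighbors on the minus strand, and Tlr9 (chr9:106099797-106104082) and Myd88 (chr9:119165000-119170486) lie on the same chromosome. Tlr2 lies at chr3:83743576-83749074, Tlr3 at chr8:45848702-45864117, Tlr4 at chr4:66745783-66849936, Tlr7 at chrX:166086758-166113605, Tril at chr6:53792453-53797815 and Cd14 at chr18:36858120-36859851. Of the 36-base windows of their transcripts, 18.2% in Tlr1, 11.8% in Tlr6 and 7.78% in Tlr7 also occurred in transcripts of other genes, and Tlr1 and Tlr6 shared windows with each other, so their counts are less certain than those of Tlr9, Cd14 and Myd88, which had none.

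Library totals ranged from 17762656 to 25712975 counts. Dentate granule cell markers were detected in all libraries, with Prox1 and C1ql2 the most abundant, and the neuronal markers Snap25 and Map2 were abundant as well. In the EZ of kainate mice, 2 of 4 neuronal markers fell at day 3, where 8.61% of all genes were called lower, and 4 of 4 at day 7 (11.9%). Of the 4 granule cell markers 2 fell in the EZ at day 3 (Dsp and Calb1) and 1 at day 7 (Calb1), and Calb1 fell in the PIZ at day 3 as well, by 2.37 on the log2 scale, against 1.57% of all genes. A single kainate mouse, mouse 27, stood apart from the other 3 at day 14: the summed level of 10 microglia markers in its EZ was 2941 CPM (counts scaled to library size) against 542.9 to 733.4 CPM in the others. Calls and log2 fold changes for the EZ at day 14 are therefore given with and without this mouse.

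Levels of different genes were compared as RPKM, the read count scaled by exon length and library size. In the saline EZ at day 7, Tril had the highest level, 6.71 ± 0.44 RPKM (SD, n = 4), followed by Tlr3 at 3.15 ± 0.34, Cd14 at 1.64 ± 0.27 and Myd88 at 1.34 ± 0.025 RPKM. Tlr7 was at 0.905 ± 0.045 RPKM, and Tlr9, Tlr2, Tlr1, Tlr4 and Tlr6 had means between 0.491 and 0.176 RPKM. The 4 libraries did not overlap between neighboring genes from Tril down to Tlr9, whereas the ranges of Tlr9, Tlr2 and Tlr1, of Tlr1 and Tlr4, and of Tlr4 and Tlr6 overlapped, so that neighbors in the order of these 5 receptors did not differ beyond their spread. In the kainate EZ at day 7 the order was different. Tril still had the highest mean, 15.2 ± 1.6 RPKM, but its libraries overlapped with those of Tlr2, and Tlr2 at 11.9 ± 5.6, Tlr7 at 11.1 ± 5.9, Cd14 at 10.01 ± 4.7 and Tlr3 at 9.08 ± 1.6 RPKM had overlapping ranges with one another. Tlr2 thus moved, by its mean, from the seventh place among the 10 genes to the second. Tlr4 and Tlr6 had the lowest means, at 1.70 ± 0.82 and 1.69 ± 0.90 RPKM.

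**Figure D1:**
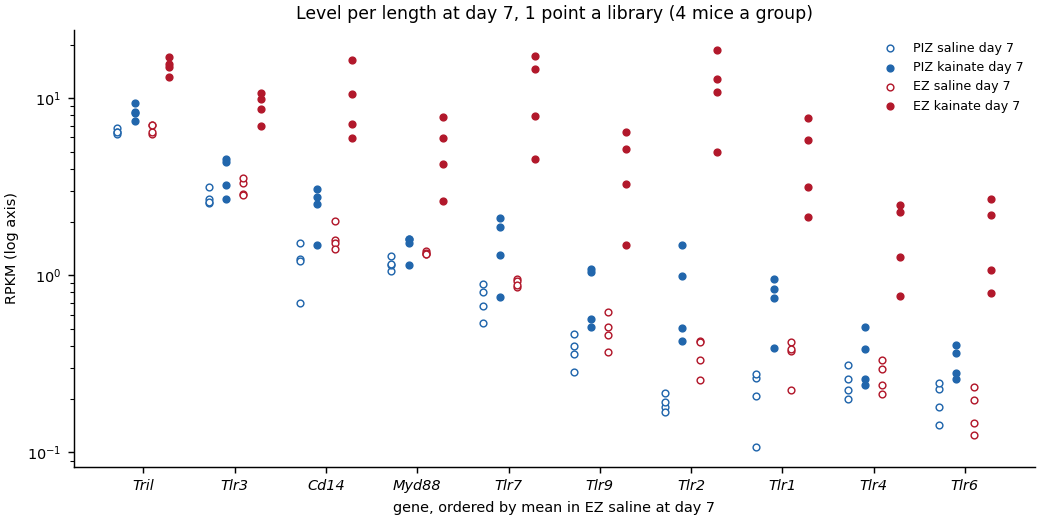
Level per length (RPKM, log axis) of the 10 genes at day 7, with 1 point per library and 4 mice per group, ordered by the mean in the saline EZ. Tril and Tlr3 led in saline tissue, and in the kainate EZ the points of Tlr2 (mean 11.9 RPKM) reached those of Tlr7, Cd14 and Tlr3.

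Kainate was compared with saline in each region at each day, to ask when and where the receptors responded. A gene was called upregulated or downregulated at an adjusted p under 0.01 (edgeR quasi-likelihood test, Benjamini-Hochberg adjustment over 21390 genes) with a fold change over 1.5. At 3 days after injection all 10 members were upregulated in the EZ, where 16.1% of all genes tested were. At 7 days all 10 were again upregulated in the EZ, against 20.6% of all genes, and at 14 days 4 of 10, namely Tlr1, Tlr2, Tlr7 and Cd14, against 2.32%. In the PIZ, 9 of 10 were upregulated at day 3, against 7.12% of all genes, with Tlr3 the exception. None was called in the PIZ at day 7, when 0.15% of all genes were upregulated. There, 7 members had an unadjusted p under 0.05, DESeq2 called 1 (Tlr2) and limma-voom called 5. The share of 0.15% is that of edgeR, and those of DESeq2 and limma-voom are not given here. At day 14 in the PIZ the count was 0 by edgeR, DESeq2 and limma-voom, with 0 members at an unadjusted p under 0.05 and 0.00935% of all genes upregulated. No member was downregulated in any of the 6 comparisons. With the mouse as a block in a limma-voom fit, the count for the PIZ at day 3 was 5 instead of 9 by edgeR. The calls for Tlr2 (adjusted p = 0.0154), Tlr7 (0.0116), Cd14 (0.0151) and Myd88 (0.015) were lost in it, while their log2 fold changes moved little. Limma-voom with quality weights and no block called 9. In the EZ at day 14 the count with this block was 0 instead of 4 by edgeR, and limma-voom with quality weights and no block also called 0.

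The values of single libraries were compared as well. The 4 kainate libraries lay above the 4 saline libraries for all 10 members in the EZ at day 3 (23.9% of all genes tested) and day 7 (23.7%), and in the PIZ at day 3 (17.1%). They did so for 5 members in the EZ at day 14 (4.58%) and for 5 in the PIZ at day 7 (7.63%), and for 0 in the PIZ at day 14 (3.7%). With 4 mice against 4, the smallest p that an exact two-sided permutation test of a single gene can give is 0.0286.

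**Figure D2:**
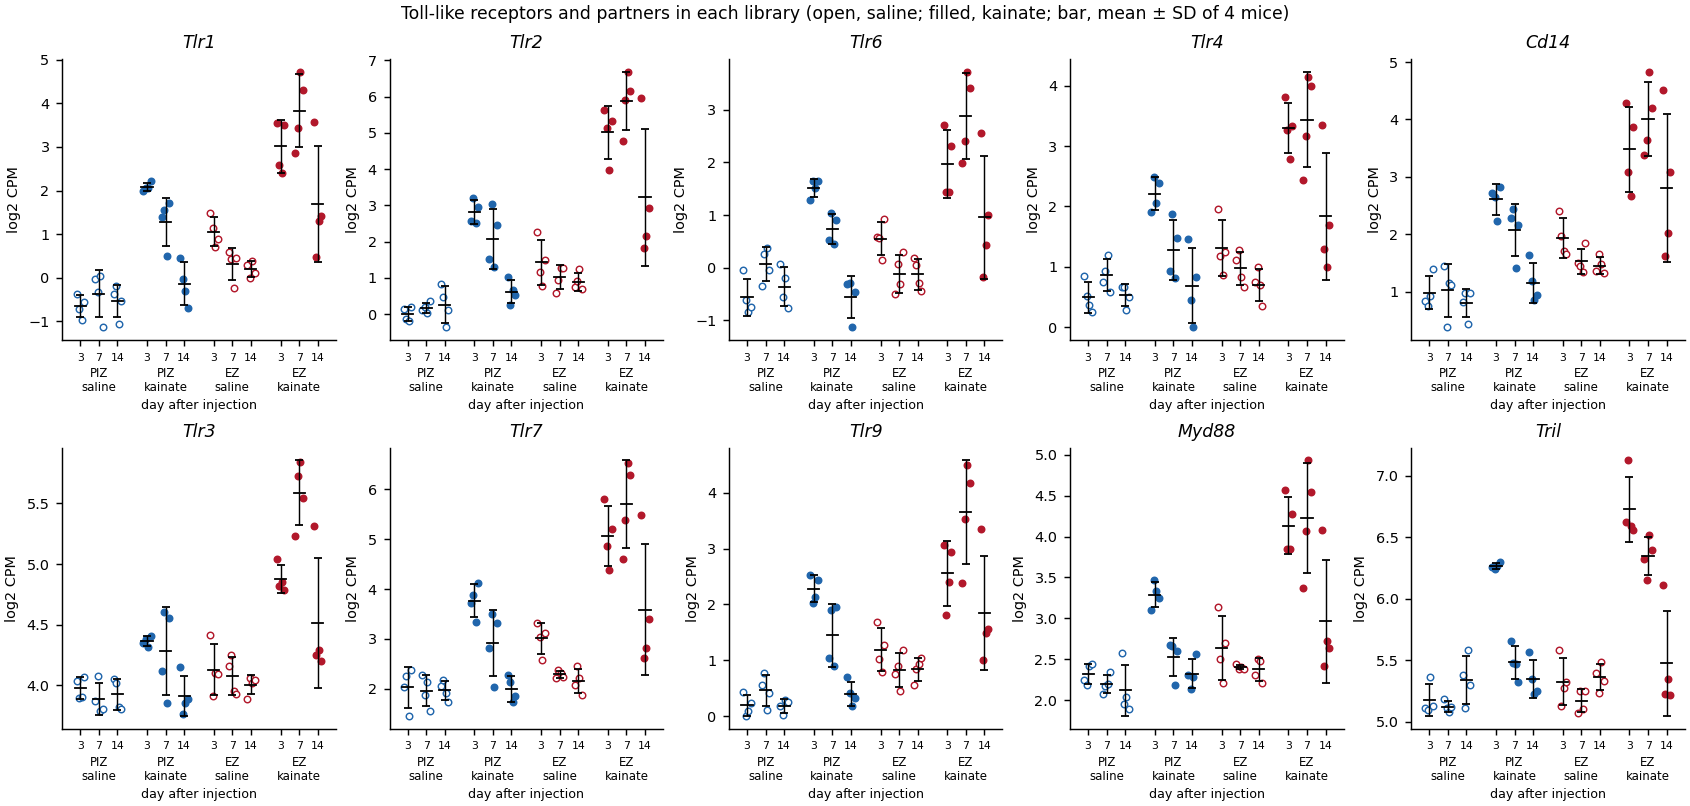
Log2 CPM of each of the 10 genes in every library, by region, injection and day (open circles, saline; filled circles, kainate; bars, mean ± SD of 4 mice). Kainate points lay above the saline points of the same side and day for the 10 genes in the EZ at days 3 and 7, and at day 14 mouse 27 was the highest EZ point in each panel.

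Among the surface receptors, Tlr2 had the largest increase. In the EZ at day 3 its level was 1.63, 2.17, 2.73 and 4.73 CPM in the saline libraries and 15.5, 35.1, 39.8 and 50.0 CPM in the kainate libraries. At day 7 the saline libraries held 1.41 to 2.35 CPM and the kainate libraries 27.5, 59.8, 70.6 and 102.8 CPM. The groups were far apart at both days, as the lowest kainate library was above the highest saline library, and the fold change was 12.5 at day 3 (log2 3.64, SE 0.57, adjusted p = 3.48e-06) and 33.01 at day 7 (log2 5.04, SE 0.61, adjusted p = 3.57e-08). Contralaterally, in the PIZ at day 3, Tlr2 was 0.789, 0.824, 1.02 and 1.05 CPM after saline and 5.67, 5.86, 7.68 and 9.13 CPM after kainate. This was a 7.67-fold increase (log2 2.94, SE 0.62, adjusted p = 6.40e-04). At day 7 in the PIZ the kainate libraries, at 2.35, 2.76, 5.42 and 8.11 CPM, were still above the saline libraries at 0.931 to 1.19 CPM, but the difference of 2.16 on the log2 scale (SE 0.62) did not pass the test (adjusted p = 0.0674). At day 14 in the PIZ the ranges overlapped.

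Tlr1 and Tlr6, the partners of Tlr2, rose in the same comparisons, in the EZ at days 3 and 7 and in the PIZ at day 3. Tlr1 in the EZ was 1.54 to 2.70 CPM after saline at day 3 and 5.18, 5.89, 11.3 and 11.6 CPM after kainate, and at day 7 it was 0.766 to 1.41 CPM and 7.19, 10.6, 19.7 and 26.3 CPM, respectively. The fold changes were 4.18 at day 3 (log2 2.06, SE 0.42) and 13.4 at day 7 (log2 3.75, SE 0.45). Tlr1 in the PIZ at day 3 went from 0.418 to 0.680 CPM after saline to 3.88 to 4.58 CPM after kainate, a 7.45-fold increase (log2 2.90, SE 0.48, adjusted p = 3.67e-05), and the kainate libraries were close together. Tlr6 was the least abundant member per length in the saline EZ. Its level in the EZ at day 7 was 0.612 to 1.14 CPM after saline and 3.88, 5.22, 10.7 and 13.1 CPM after kainate (9.60-fold, log2 3.26, SE 0.41), with no overlap. Its increase was 2.95-fold in the EZ at day 3 (log2 1.56, SE 0.38) and 4.63-fold in the PIZ at day 3 (log2 2.21, SE 0.42). Without kainate mouse 38, which had the highest Tlr6 in the EZ at day 3 (6.43 CPM), the log2 fold change there was 1.27 and the adjusted p 0.0118.

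Tlr4, the lipopolysaccharide receptor, rose in the EZ at days 3 and 7 and in the PIZ at day 3. Its EZ level was 1.72, 2.17, 2.29 and 3.78 CPM after saline and 6.82, 9.56, 9.94 and 14.0 CPM after kainate at day 3 (4.04-fold, log2 2.01, SE 0.37, adjusted p = 3.07e-05). At day 7 it was 1.496 to 2.345 CPM and 5.35, 8.89, 15.9 and 17.6 CPM (6.26-fold, log2 2.65, SE 0.38). The kainate range at day 7 enclosed that at day 3, and the groups of kainate and saline did not overlap at either day. In the PIZ, Tlr4 rose 3.44-fold at day 3 (log2 1.78, SE 0.39, adjusted p = 8.65e-04), while at day 7 the log2 difference was 0.49 (SE 0.39, adjusted p = 0.595) and the libraries overlapped. Cd14, the co-receptor of Tlr4 and Tlr2, was 3.07 to 5.22 CPM after saline and 6.27, 8.42, 14.6 and 19.4 CPM after kainate in the EZ at day 3 (3.18-fold, log2 1.67, SE 0.38). At day 7 it was 2.45 to 3.51 CPM and 10.3, 12.4, 18.3 and 28.3 CPM (6.12-fold, log2 2.61, SE 0.40). Its increase in the PIZ at day 3 was 3.16-fold (log2 1.66, SE 0.40, adjusted p = 0.00257), and the call was lost without saline mouse 18 (adjusted p = 0.0112) or saline mouse 37 (0.0129). The log2 fold changes of Cd14 and Tlr4 were within their standard errors of each other in the EZ at days 3 and 7 and in the PIZ at day 3.

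Of the endosomal receptors, Tlr7 had the largest fold changes in the EZ. In the EZ its level was 5.92, 8.07, 8.57 and 9.90 CPM after saline and 20.7, 29.2, 36.9 and 56.2 CPM after kainate at day 3. At day 7 it was 4.57 to 5.08 CPM after saline and 24.1, 41.8, 77.5 and 92.2 CPM after kainate. The saline libraries at day 7 were nearly identical, whereas the kainate libraries ranged widely, and the fold changes were 4.41 (log2 2.14, SE 0.41, adjusted p = 5.79e-05) and 12.3 (log2 3.62, SE 0.44, adjusted p = 3.74e-08). Tlr7 in the PIZ at day 3 was 2.65 to 5.10 CPM after saline and 9.99, 13.2, 14.7 and 17.4 CPM after kainate (3.35-fold, log2 1.75, SE 0.42, adjusted p = 0.00237). The call was lost without kainate mouse 42 (adjusted p = 0.0102) or saline mouse 18 (0.0153). Tlr9 rose 2.72-fold in the EZ at day 3 (log2 1.44, SE 0.36), 8.35-fold at day 7 (log2 3.06, SE 0.38) and 4.52-fold in the PIZ at day 3 (log2 2.18, SE 0.39). In the EZ at day 3 the kainate libraries of Tlr9, at 3.40, 5.22, 7.58 and 8.30 CPM, came close to the highest saline library at 3.11 CPM, and at day 7, at 5.15, 11.5, 17.9 and 22.5 CPM, they were clear of the saline libraries at 1.28 to 2.17 CPM.

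Tlr3, the receptor for double-stranded RNA, had the highest saline level of the receptors and, in the EZ, the smallest fold changes among them. The EZ libraries held 14.9, 16.9, 17.1 and 21.2 CPM after saline and 27.6, 28.2, 28.8 and 32.9 CPM after kainate at day 3 (1.67-fold, log2 0.74, SE 0.17, adjusted p = 3.45e-04). At day 7 they held 15.17 to 18.98 CPM and 37.5, 46.5, 53.0 and 57.3 CPM (2.89-fold, log2 1.53, SE 0.17, adjusted p = 1.90e-08). On the PIZ side at day 3 the kainate libraries, at 19.8, 20.3, 20.8 and 21.2 CPM, were above the saline libraries at 14.8, 14.8, 16.3 and 16.7 CPM, but the 1.31-fold difference (log2 0.39, SE 0.17) was under the fold threshold and did not pass the test (adjusted p = 0.0852). The PIZ kainate libraries at day 7 were 14.3, 17.3, 23.4 and 24.3 CPM and overlapped with saline at 13.8 to 16.8 CPM.

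Tril, the accessory protein of Tlr4 and Tlr3, rose in the EZ at days 3 and 7 and in the PIZ at day 3. In the EZ it was 34.8, 38.6, 39.9 and 47.9 CPM after saline and 94.0, 96.5, 98.7 and 139.3 CPM after kainate at day 3, a 2.66-fold increase (log2 1.41, SE 0.14, adjusted p = 2.71e-09). At day 7 it was 33.6 to 38.1 CPM and 71.0, 80.0, 84.1 and 91.4 CPM, a 2.27-fold increase (log2 1.18, SE 0.14, adjusted p = 2.77e-08). All kainate libraries at day 7 were below all those at day 3. In the PIZ at day 3 the kainate libraries of Tril, at 75.4, 76.2, 76.9 and 78.6 CPM, were close together and did not overlap with saline at 34.1 to 41.2 CPM (2.12-fold, log2 1.09, SE 0.14, adjusted p = 6.87e-07). At day 7 in the PIZ they were 39.99 to 50.22 CPM, just above saline at 33.7 to 36.4 CPM (log2 0.36, SE 0.14, adjusted p = 0.183). By day 14 Tril was 37.3 to 47.3 CPM after kainate and 34.5 to 47.8 CPM after saline in the PIZ, and its log2 fold change was 0.0023 (SE 0.14).

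Myd88, the shared adaptor, rose on both sides. Its EZ level was 4.55, 5.58, 6.38 and 8.73 CPM after saline and 14.3, 14.3, 19.2 and 23.6 CPM after kainate at day 3 (2.83-fold, log2 1.501, SE 0.26, adjusted p = 1.36e-05). At day 7 it was 5.11 to 5.32 CPM and 10.2, 16.6, 23.2 and 30.4 CPM (3.88-fold, log2 1.96, SE 0.26, adjusted p = 1.27e-07). The groups did not overlap. In the PIZ at day 3 it was 4.46 to 5.33 CPM after saline and 8.49, 9.45, 9.99 and 11.02 CPM after kainate (1.98-fold, log2 0.98, SE 0.26, adjusted p = 0.00533). The call was lost when any of the mice 18, 29, 30, 37, 41, 42 and 44 was left out, with adjusted p-values from 0.0117 to 0.0203.

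**Figure D3:**
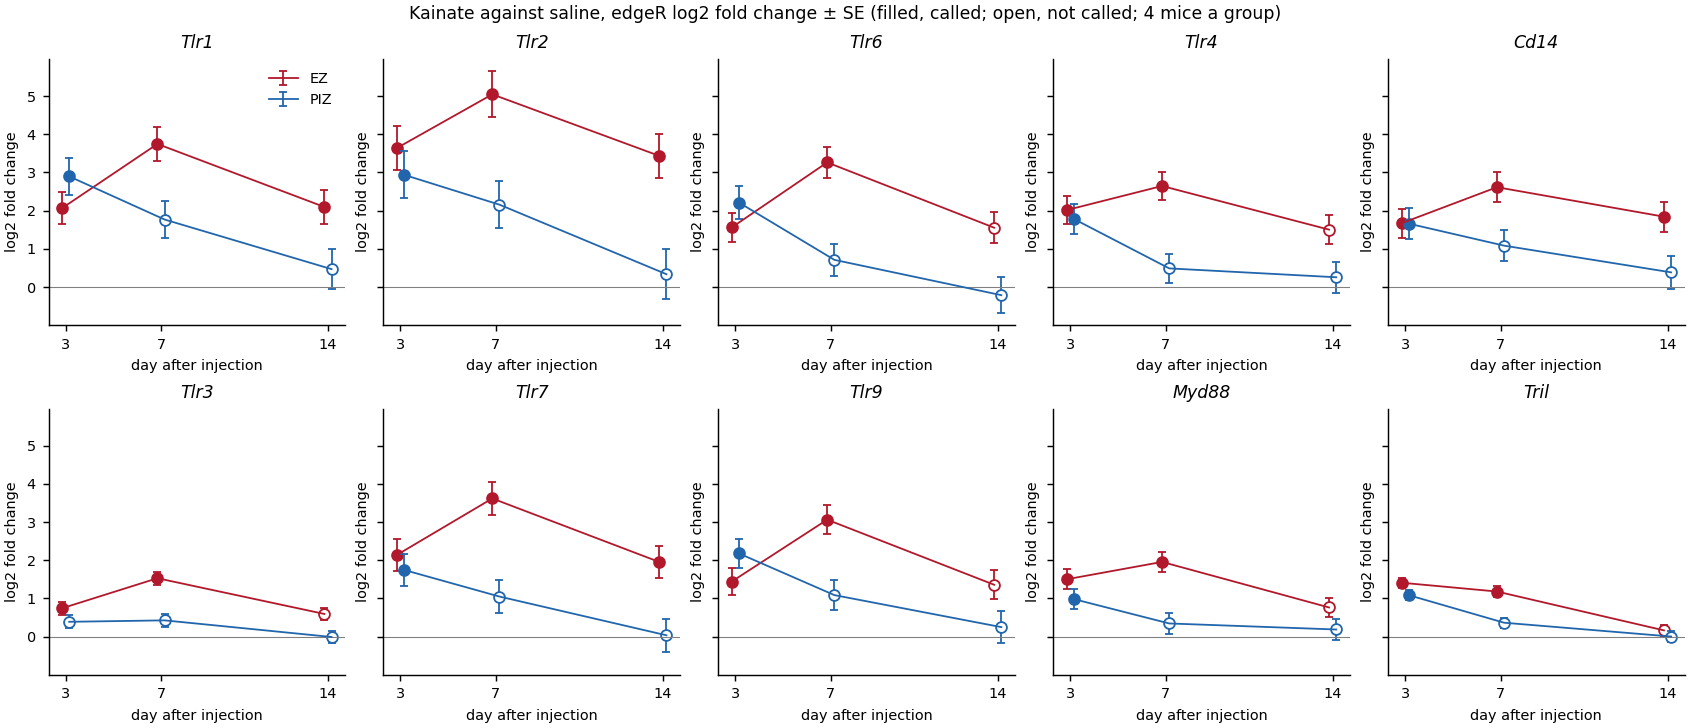
Log2 fold change of kainate against saline (edgeR, ± SE, 4 mice per group) of the 10 genes by day after injection in the EZ and the PIZ (filled, called; open, not called). In the EZ the estimates of the receptors were larger at day 7 than at day 3 (Tlr2 5.04 and 3.64) and that of Tril was smaller (1.18 and 1.41), and in the PIZ no point was filled after day 3.

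At day 14 the EZ results rested on mouse 27. For Tlr2 the kainate libraries held 3.48, 4.39, 7.56 and 62.2 CPM, the last from mouse 27, and the saline libraries 1.53, 1.58, 1.80 and 2.26 CPM. Although all 4 were above saline, the difference fell from 3.43 on the log2 scale (SE 0.58, adjusted p = 6.28e-04) to 1.53 (adjusted p = 0.224) without this mouse. The other 3 members called at day 14 were Tlr1 (log2 2.10, SE 0.45), Tlr7 (1.95, SE 0.42) and Cd14 (1.84, SE 0.40), and without mouse 27 their values were 0.98, 0.83 and 0.96. Without mouse 27, 0 of 10 members were called, and the number of upregulated genes among all genes fell from 496 to 7. In its EZ mouse 27 was highest for 10 of 10 members, and in its PIZ for 8 of 10. Not called at day 14 were Tlr4 (log2 1.503, adjusted p = 0.0126), Tlr6 (1.55, 0.0174), Tlr9 (1.36, 0.023), Tlr3 (0.59, 0.026), Myd88 (0.76, 0.0829) and Tril (0.16, 0.557). Without mouse 27 these log2 values were 0.68, 0.68, 0.54, 0.24, 0.22 and -0.10, in the same order. Tril in the remaining 3 kainate mice was 37.2, 37.3 and 40.6 CPM, within or just below the saline range of 37.5 to 44.7 CPM. The count was 8 without kainate mouse 36, and 1 without any of the saline mice 24, 28, 31 and 39. Without kainate mouse 14, Tlr4 and Tlr6 were called as well, and without kainate mouse 40, Tlr3 and Tlr4 were.

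The kainate effect was next compared between the sides, since both were taken from each mouse. The estimated difference, EZ minus PIZ, used the libraries of the comparisons above. At day 3 it was called for 0 members (0.0374% of all genes were higher), with 0 at an unadjusted p under 0.05 and 0 by DESeq2 and limma-voom, and it ranged from -0.83 (SE 0.63) in Tlr1 to 0.70 (SE 0.83) in Tlr2. At day 7 it was larger in the EZ for 7 members, against 7% of all genes. These were Tlr7 (2.57, SE 0.59), Tlr6 (2.55, SE 0.58), Tlr4 (2.16, SE 0.54), Tlr9 (1.97, SE 0.54), Myd88 (1.61, SE 0.37), Tlr3 (1.10, SE 0.23) and Tril (0.82, SE 0.19), with adjusted p-values from 0.00223 to 0.0076. Tlr2 (2.89, SE 0.86, adjusted p = 0.0126), Tlr1 (1.98, 0.0232) and Cd14 (1.53, 0.0392) did not pass, although Tlr2 had the largest difference. This fit did not use the pairing of the sides, and with the mouse as a block in edgeR Tlr2 was called as well. DESeq2 called 8 members and limma-voom 10, and the shares of all genes in those fits are not given here. At day 14 the count was 0 (0% of all genes), with 7 members at an unadjusted p under 0.05 and 0 called by DESeq2 and limma-voom.

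In the kainate mice at day 7, every member was higher in the EZ than in the PIZ of the same mouse in 4 of 4 mice (28.2% of all genes were; exact sign-flip test, p = 0.125, which is the lower limit of this test with 4 mice). The size varied between mice. In mouse 21 the EZ was the highest of the 4 for 10 of 10 members, while its PIZ was the lowest for 9 of 10, and its microglia marker sum was 5711 CPM in the EZ and 448.7 CPM in the PIZ. The number of members with a larger effect in the EZ changed when a mouse was left out. It fell to 0 after removal of kainate mouse 21 or saline mouse 20, was 1 after removal of kainate mouse 35 or saline mouse 89, 4 after that of saline mouse 33 or 34, and 8 after that of kainate mouse 23 or 26. At day 3 the EZ was higher in 4 of 4 kainate mice for all members but Tlr6 (2 of 4) and Tlr9 (3 of 4), against 25.8% of all genes. At day 14 it was higher in 4 of 4 for 9 members, with Tril the exception (2 of 4), against 11.8% of all genes.

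The sides were also compared in saline mice. At day 3 the EZ was above the PIZ of the same mouse in 4 of 4 saline mice for all members but Tril and Myd88 (3 of 4), against 13.3% of all genes. The log2 difference was 1.87 (SE 0.49) for Tlr1, 1.61 (SE 0.64) for Tlr2 and 1.21 (SE 0.44) for Tlr6, and 7 members had an unadjusted p under 0.05, but 0 passed the edgeR test (0.0281% of all genes were called higher), 0 were called by DESeq2 and limma-voom, and their adjusted p-values were 0.257 or more. Of the 4 saline mice, mouse 29 had the highest EZ level for 9 of 10 members and the highest microglia marker sum (968.8 CPM, the others 574.7 to 708.0 CPM). At days 7 and 14 the saline difference was called for 0 members by edgeR, DESeq2 and limma-voom (0% of all genes at either day), with 0 at an unadjusted p under 0.05. The EZ was above the PIZ in 4 of 4 saline mice for 5 members at day 7 (8.52% of all genes) and for 4 at day 14 (9.9%).

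Change between days was tested directly as the difference between kainate effects. From day 3 to day 7 in the EZ, 0 of 10 members passed in either direction by edgeR (0.145% of all genes). An unadjusted p under 0.05 was found for 5 members. DESeq2 called 0 and limma-voom 5, and the shares of all genes in those fits are not given here. The estimates were positive for 9 members, from 0.45 (SE 0.36) in Myd88 to 1.70 (SE 0.55) in Tlr6, and negative for Tril (-0.23, SE 0.19). From day 7 to day 14 in the EZ, 1 member fell, Tril, by 1.02 on the log2 scale (SE 0.19, adjusted p = 0.00681), against 0.15% of all genes. The other 9 had estimates between -1.71 and -0.77, with larger standard errors, and 8 of them had an unadjusted p under 0.05. Without mouse 27 all 10 passed as lower, but so did 13.1% of all genes in that fit. DESeq2 called 2 and limma-voom 10 with all mice (2.13% and 29.5% of all genes in either direction), and the call of Tril was lost when any other mouse of these groups except kainate mice 23 and 26 was left out, with adjusted p-values from 0.0106 to 0.0372. In the PIZ from day 3 to day 7, 0 passed by edgeR (0.0234% of all genes). Here 3 had an unadjusted p under 0.05, DESeq2 called 0 and limma-voom 1, again with no share given for those fits. The estimate for Tril was -0.72 (SE 0.19, adjusted p = 0.126).

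Marker genes of several cell types were called in the same comparisons, in which 16.1% (EZ, day 3), 20.6% (EZ, day 7) and 7.12% (PIZ, day 3) of all genes were called higher. The microglia list, with Csf1r among its most abundant genes, had 6 of 10 genes upregulated in the EZ at day 3, 10 of 10 at day 7 and 6 of 10 at day 14 (0 without mouse 27), and 10 of 10 in the PIZ at day 3. Its summed level in the EZ was 442 to 969 CPM after saline, 1321 to 2131 CPM after kainate at day 3 and 1638 to 5711 CPM at day 7. In the PIZ it was 339 to 469 CPM after saline and 1054 to 1283 CPM after kainate at day 3. The 4 genes of this list not called in the EZ at day 3 were P2ry12, Sall1, Gpr34 and Siglech, with log2 differences between -0.31 and 0.51. The list for infiltrating myeloid cells, led by Cd44 and Ly6c2, had 7 of 8 genes upregulated in the EZ at days 3 and 7, 1 at day 14 (0 without mouse 27) and 1 in the PIZ at day 3 (Cd44), and its sum in the EZ was 9.89 to 33.6 CPM after saline and 128 to 305 CPM after kainate at day 3. Chil3 of this list was at 0 in 24 of 48 libraries and Plac8 in 14. Neutrophil markers summed to at most 4.68 CPM and T and B cell markers to at most 5.13 CPM in any library. The T and B cell sum was 0.714 to 5.13 CPM after kainate and 0.235 to 0.877 CPM after saline in the EZ at day 7, where Cd4, the marker of this list that was tested, rose (log2 4.01). Of the neutrophil markers, Elane was at 0 in 46 libraries, Camp in 43 and Ly6g in 37. Astrocyte markers, led by Slc1a2 and Gfap, had 4 genes up and 2 down in the EZ at day 3, 5 up at day 7 and 4 up in the PIZ at day 3. Of the other lists, the fibroblast markers (Dcn and Col1a2 most abundant) had 4 of 4 genes up in the EZ at days 3 and 7, the endothelial markers (Flt1 and Cldn5) 3 of 5 at both days, and the oligodendrocyte markers (with Mbp among the most abundant) 2 and 3 of 6, while of the choroid plexus markers (Kl and Ttr) 1 rose and 1 fell at day 3 and 1 fell at day 7. In the PIZ at day 3, 0 of 4 fibroblast, 0 of 5 endothelial, 0 of 4 choroid plexus and 1 of 6 oligodendrocyte markers rose. The part of these lists in the member results was not tested, apart from the ratio that follows.

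The level of each member per 100 CPM of the summed microglia markers was computed after the values had been seen. Over 60 comparisons of 4 against 4 libraries, 24 did not overlap, against 56.1% of the same comparisons over all genes, each with p = 0.0286 in an exact permutation test, the smallest possible, and 0.0715 after Benjamini-Hochberg adjustment over the 60, so that none passed. The kainate libraries of Tlr2 lay above saline in 5 of 6 region and day combinations (0.327% of all genes did so in 5 or 6), with a ratio of means of 5.69 in the EZ at day 3, 4.98 at day 7 and 2.58 in the PIZ at day 3. In the EZ at day 3 this ratio was 0.284 to 0.488 CPM per 100 CPM after saline and 1.03 to 2.66 after kainate. Tlr1 lay above saline in 4 of 6 (0.776% of all genes in 4 or more), and Tlr6 and Tlr7 in 2 of 6 (2.82% in 2 or more). Tlr4 lay above it in the EZ at day 3 (ratio of means 1.82) and Tlr9 in the PIZ at day 3 (1.55). Tlr3 and Tril lay below saline in 3 of 6, as 72.6% of all genes did in 3 or more. For Tlr3 this was in the EZ at day 3 (ratio of means 0.741) and day 7 (0.505) and in the PIZ at day 3 (0.441), and for Tril in the EZ at day 7 (0.408) and day 14 (0.579, and 0.685 without mouse 27) and in the PIZ at day 3 (0.707). For Cd14 the libraries overlapped in all 6, and the ratio of means in the EZ at day 7 was 0.944. Myd88 was above saline in the EZ at day 3 (1.25) and below it in the EZ at day 7 (0.595) and in the PIZ at day 3 (0.657).

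**Figure D4:**
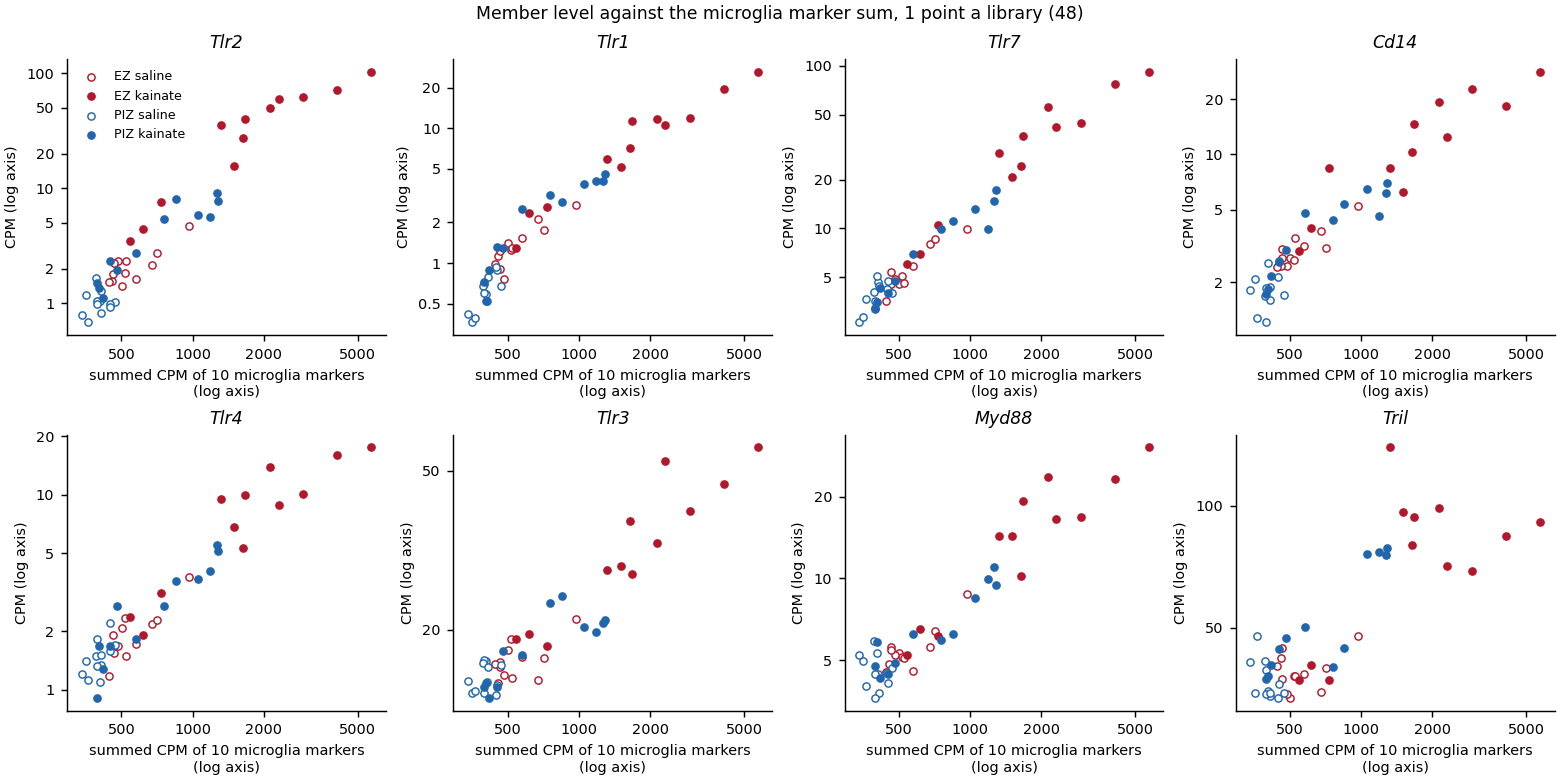
CPM of Tlr2, Tlr1, Tlr7, Cd14, Tlr4, Tlr3, Myd88 and Tril against the summed CPM of 10 microglia markers in the same library (both axes log, 48 libraries). Tlr6 and Tlr9 are not drawn. Receptor levels climbed with the marker sum, the Tlr2 points of the kainate EZ at days 3 and 7 lay above all saline points, and Tril was at 75.4 to 78.6 CPM in the PIZ at day 3 with sums of 1054 to 1283 CPM.

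Across the 48 libraries, the genes whose log2 CPM followed a member most closely (Pearson r, a description only, since libraries share groups, mice and cell composition) were listed for each member. Among the members themselves r lay between 0.887 (Tlr3 and Tlr6) and 0.973 (Tlr2 and Tlr7) without Tril, and between 0.76 (Tlr3) and 0.877 (Myd88) for Tril with the others. After the group means were subtracted these ranges were 0.598 to 0.882 without Tril and 0.395 to 0.525 with it. The genes nearest to Tlr2 were Ctsz (r = 0.987), Plek (0.986) and Cd180 (0.985), for Tlr7 Plek (0.99), Ctsd (0.989) and Gm49369 (0.988), and for Tlr1 Mpeg1 (0.983), AU020206 (0.983) and Cd300c2 (0.982). Tlr9 was nearest to Unc93b1 (0.977), which carries the endosomal receptors out of the endoplasmic reticulum, then Laptm5 and Cd300c2 (both 0.976). Tlr4 was nearest to Dock8 (0.977), Itgb2 and Lyn (both 0.976), Tlr6 to genes that included Cd300c2 (0.967) and Apobec3 (0.965), Cd14 to Trem2 (0.979), Mpeg1 and Tyrobp (both 0.976), and Myd88 to Lgmn (0.979), Lcp1 and Ltbr (both 0.978). Tlr3 was nearest to the interferon-induced genes Znfx1 (0.964), Sp100 (0.963) and Gbp5 (0.961), and Tril to genes that included Ampd3 (0.957) and Efemp2 (0.955). With the group means subtracted, which leaves the differences between mice of 1 group, Tlr2 was nearest to Plek (0.939), Ctsz (0.921) and Pik3ap1 (0.919), and Tlr7 to Mpeg1 and Plek (both 0.953) and Tcn2 (0.942). Tlr3 was then nearest to Gbp7 (0.861), Sp100 (0.848) and Znfx1 (0.846), and Tril to Pomp (0.797), Nrg1 (0.795) and BC064078 (0.792). The others were nearest to Ctsz, Trem2 and Ctss (Tlr1, 0.909 to 0.916), Itga6, Pros1 and Dock8 (Tlr4, 0.91 to 0.913), genes that included Tgfbr2 and Zfp36l1 (Tlr6, 0.898 and 0.897), Vsir, Laptm5 and Wdfy4 (Tlr9, 0.899 to 0.904), Trem2, C1qb and Ctss (Cd14, 0.909 to 0.921), and Arpc1b, Ms4a6d and Ctsh (Myd88, 0.909 to 0.917).

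The rest of the pathway was examined in a list of 71 genes, of which 67 were tested and Il6, Il12b, Ifnb1 and Tlr11 were not. In the EZ at day 3, 38 were upregulated and 3 downregulated (Sarm1, Traf3 and Cyld), where 16.1% of all genes were called higher and 8.61% lower, with a median log2 fold change of 1.113 against 0.032 over all genes tested. At day 7, 44 were upregulated and 2 downregulated (Sarm1 and Cyld, median 1.478), against 20.6% and 11.9% of all genes. At day 14 the list had 15 upregulated genes, against 2.32% of all genes, and 0 in any role without mouse 27. In the PIZ at day 3, 18 were upregulated (median 0.295), against 7.12%. No gene of the list was called in the PIZ at day 7 (0.15% of all genes higher) or day 14 (0.00935%).

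Of the 4 other receptors tested, 2 rose in the EZ at day 3 (Tlr8 and Tlr13), 4 at day 7 and 2 in the PIZ at day 3 (Tlr12 and Tlr13). Tlr13, a receptor for bacterial ribosomal RNA, rose in the EZ at days 3 (log2 2.60), 7 (3.63) and 14 (1.92, and 0.59 without mouse 27) and in the PIZ at day 3 (1.62), Tlr12 rose in the EZ at day 7 (2.15) and the PIZ at day 3 (1.35), and Tlr5, the flagellin receptor, in the EZ at day 7 (1.54). Among co-receptors, relatives and chaperones, 7 of 9 rose in the EZ at days 3 and 7 and 3 in the PIZ at day 3. These 3 were Cd180 (log2 3.13, 4.72 and 2.25 in the EZ at days 3 and 7 and the PIZ at day 3), its partner Ly86 (1.87, 4.05 and 2.96) and Unc93b1 (1.58, 3.39 and 2.20). Of 5 adaptors, 4 rose in the EZ at days 3 and 7 and 1 fell, namely Sarm1, a negative regulator of Ticam1. In the same order, Pik3ap1 rose by 2.61, 4.16 and 2.73, Ticam2, the bridge between Tlr4 and Ticam1, by 1.63, 2.85 and 2.07, and Tirap, the bridge to Myd88, by 1.47, 1.80 and 1.03.

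Of 16 kinases and ubiquitin ligases, 3 rose and 1 fell in the EZ at day 3, 4 rose at day 7, and 2 rose in the PIZ at day 3, shares near those of all genes. The latter 2 were Irak4, which binds Myd88 (log2 1.69 and 2.41 in the EZ at days 3 and 7, 1.54 in the PIZ at day 3), and Btk (2.01, 3.64 and 1.99). Transcription factors rose in 8 of 9 cases in the EZ at day 3, in 9 of 9 at day 7, in 5 at day 14 and in 5 in the PIZ at day 3. Those of the PIZ were Irf7 (2.76), Irf8 (2.27), Irf5 (1.73), Nfkb2 (1.18) and Rel (0.80), and their EZ values at day 7 were 5.04, 3.72, 3.14, 3.05 and 1.53. Among 8 inhibitors 3 rose and 1 fell in the EZ at day 3, 5 rose and 1 fell at day 7, and 0 were called in the PIZ at day 3. Nfkbia, which holds NF-kB in the cytoplasm, rose by 0.70 and 1.29 in the EZ at days 3 and 7, and Cyld, a deubiquitinase, fell by 0.89 and 0.93.

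Of 9 endogenous ligands, 4 rose in the EZ at days 3 and 7 and 1 in the PIZ at day 3. The matrix proteoglycan Bgn rose by 3.15 and 3.94 in the EZ at days 3 and 7 and by 1.98 in the PIZ at day 3, and Vcan by 1.38 and 1.64 in the EZ. All 7 tested target cytokines rose in the EZ at days 3 and 7 and 4 at day 14, and 2 rose in the PIZ at day 3, namely Ccl3 (log2 2.95) and Cxcl10 (3.82), which were 4.66 and 5.53 in the EZ at day 7.

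**Figure D5:**
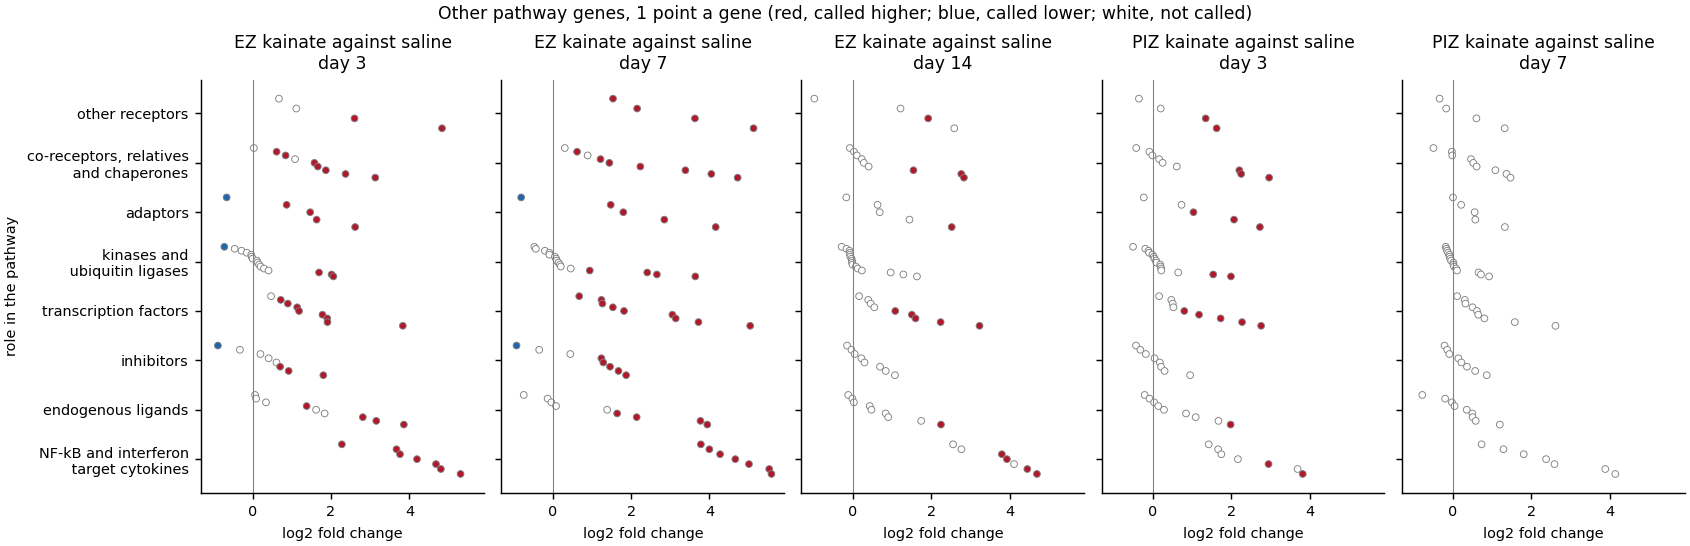
Log2 fold change of kainate against saline for the other genes of the pathway, 1 point per gene, by role (red, called higher; blue, called lower; white, not called), with a panel for each comparison. In the EZ 38 genes were red at day 3 and 44 at day 7, against 18 in the PIZ at day 3, and among the 16 kinases and ubiquitin ligases 3, 4 and 2 were red.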

How the data were processed

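Poly-A RNA of the dorsal dentate gyrus was sequenced in 48 libraries, an EZ and a PIZ library from each of 24 mice. The authors deposited raw counts per gene and library, as whole numbers without normalization. Per the submitters' processing notes and the methods of the study, reads were trimmed with fastp 0.20.1, aligned to GRCm39 with HISAT2 2.2.1 and counted by strand with featureCounts of Subread 1.6.4, with multi-mapping reads counted at their primary alignment, which makes Tlr1 and Tlr6 counts less certain. The study used DESeq2 1.32.0 in R 4.1.1. All columns belonged to labelled samples, and groups were taken from the sample records.

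Here, in R 4.3.3, edgeR 4.0.16 was used on the deposited counts, with a filter on low counts (filterByExpr over the 12 groups, 21390 genes left), TMM scaling and a quasi-likelihood fit with 1 mean per group to all 48 libraries. Genes were called with the thresholds of the study, that is a Benjamini-Hochberg adjusted p below 0.01 and a change of more than 1.5-fold. The standard error was the absolute log2 fold change divided by the square root of F. CPM, log2 CPM (prior count 2) and RPKM were computed here with TMM library sizes and Gencode M39 exon lengths, and 98.90% of gene identifiers were matched to that annotation. Library totals of 17762656 to 25712975 counts set the precision of low genes such as Tlr6. The model was tested on simulated counts before use. The EZ and PIZ libraries with the same number came from the same mouse per the labels. Their residuals correlated between -0.054 and 0.376, over 0.1 in 20 of 24 mice. The mouse as a block entered as an alternative fit. It was fitted with limma-voom for kainate against saline and for changes between days, and with edgeR for EZ against PIZ. Other alternatives were DESeq2 1.42.0, limma-voom 3.58.1 with quality weights, other scalings, filters, thresholds and prior counts, and leaving out each mouse.

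The members and gene lists were chosen with earlier results of these data known. Named in the text are all members, for each pathway role the 2 genes ranked first by p (EZ, day 7) and any gene of the list called in the PIZ at day 3, the 3 genes most correlated with each member, the 2 most abundant genes of each marker list, and single genes behind a count of 5 or fewer. Some genes that this rule picks are not reported here.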

Additional observations from a re-analysis of the deposited data

Results flagged for a closer look

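Of 120 sets of 4 libraries (10 genes in 12 groups), 5 held a library whose gap to its neighbor exceeded Dixon's 95% critical value for a group of 4, and chance gives about 1 in 20. In the EZ of kainate mice at day 14, mouse 27 was far above the others for Tlr3, with 5.313 log2 CPM (39.6 CPM, the next 19.5 CPM), and for Tril, with 6.111 log2 CPM (69.0 CPM, the next 40.6 CPM). Tril was also high in the EZ of kainate mouse 30 at day 3, at 7.123 log2 CPM (139.3 CPM, the next 98.7 CPM), and in the PIZ of saline mouse 18 at day 3, at 5.368 log2 CPM (41.2 CPM, the next 34.95 CPM). Myd88 was low in the PIZ of kainate mouse 21 at day 7, at 2.179 log2 CPM (4.44 CPM, the next 5.95 CPM).

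The kainate effect at day 7 was larger in the EZ than in the PIZ, by the test of the difference itself, for Tlr3 (log2 1.1033), Tlr4 (2.1577), Tlr6 (2.5507), Tlr7 (2.568), Tlr9 (1.9745), Tril (0.8168) and Myd88 (1.6111). Tril was the member whose effect in the EZ was called different between days 14 and 7 in the main fit (log2 -1.0173). An unadjusted p under 0.05 was found for 9 members, and the count called was 0 to 10 when a mouse was left out. The call of Tril was kept in 3 of 16 such fits.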

How the results depend on the processing

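In the EZ all 10 members were called at day 7 and 9 or 10 at day 3 when any mouse was left out, but at day 3 a test against the 1.5-fold threshold (glmTreat) called 7, without Tlr3, Tlr6 and Tlr9. Of 150 member values, 11 changed sign under at least 1 setting, none of them called as reported or with the other sign, with at most 0.26 on the log2 scale as reported. The counts elsewhere depended on the processing, and the cause was not tested. The shares of all genes called under these settings are not given in this section. In the EZ at day 14 the 4 calls became 8 at an adjusted p under 0.05, 7 with DESeq2, 1 with glmTreat, 0 with limma-voom, 0 with the mouse as a replicate block, 0 when only the compared groups were fitted, and 0 to 8 when a mouse was left out. In the PIZ at day 3 the 9 calls became 5 with glmTreat, 5 with the replicate block and 6 to 9 without a mouse. In the PIZ at day 7 the 0 calls became 1 at an adjusted p under 0.05, 1 with DESeq2 and 5 with limma-voom. The 7 differences between sides at day 7 became 0 with glmTreat, 8 with the block (Tlr2 gained), 8 with DESeq2, 10 with limma-voom and 0 to 8 without a mouse. At an adjusted p under 0.05, Tlr1, Tlr2 and Cd14 were gained. Between days, the 0 calls in the EZ from day 3 to 7 became 5 with limma-voom, the 0 in the PIZ became 1 with limma-voom and 1 with only the compared groups, and the 1 in the EZ from day 7 to 14 became 6 at an adjusted p under 0.05, 2 with DESeq2, 0 with glmTreat, 10 with limma-voom, 0 without a filter, 0 with only the compared groups and 0 to 10 without a mouse. The block, where the pairing of sides within a mouse enters (within-mouse correlation 0.163), moved no other count by over 1.5 times. Of 60 sets of library values 40 did not overlap, also with a prior count of 0.5. Over all genes, kainate lay above saline without overlap in 3.7% to 23.9%, by region and day. After the data were seen, 2 alternatives were added. Per microglia marker sum 24 of the 60 did not overlap, against 56.1% of the same comparisons over all genes. Without kainate mouse 27 the 15 pathway genes called in the EZ at day 14 became 0. A filter of at least 10 counts in every library left Tlr1 and Tlr6 untested, since depth limits these low genes.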
